A study of Homo sapiens with 18 samples.

Results

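The genes described here are 10 members of the matrix metalloproteinase (MMP) and tissue inhibitor of metalloproteinase (TIMP) families, namely MMP1, MMP2, MMP3, MMP10, MMP13, MMP14, MMP16, TIMP1, TIMP2 and TIMP3. They were chosen by their names out of 26702 genes in the deposited tables, with the rise of MMP3 after siRFXANK already known. Every value of siRFXANK against siControl is therefore given as a description, with no test, and counts of calls there are given without a reading. The members, and the gene lists named further below, were chosen with earlier results of these data known. Counts and medians over them in the other comparisons are therefore descriptions too. All 10 were present in each of the 6 tables, so none was lost to a filter on low counts. The tables held 24 MMP and TIMP genes in all, and the 14 others are given only as counts and single examples.

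The cells were U2OS, an established human osteosarcoma line. All of them received a small interfering RNA, either a control (siControl) or one directed at ANKRA2 or at RFXANK, and each was then kept for 24 h in DMSO or in 10 µM Nutlin-3a, which frees the tumour suppressor p53 from MDM2. This gave 6 groups of 3 samples, 18 in total, with RNA-seq of polyadenylated RNA. ANKRA2 and RFXANK are related proteins with ankyrin repeats, of which RFXANK works together with RFX transcription factors. The siRFXANK samples were labelled in a different form, with bone as tissue, epithelial cells as cell type and a wild-type genotype, and no siControl samples of that form were included. A batch and the effect of siRFXANK cannot be told apart.

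Only comparisons between groups were used here, with no value per library, so the depth of a library is unknown and the scatter of single samples is not shown. The level of a gene in a group is a mean in normalized counts that was recovered from the deposited log2 fold changes and standard errors (SE), each over n = 3 samples, and it is an approximate value. Ratios between groups of the same gene are those of the deposited tables. A mean of at most 3 normalized counts is treated as a floor. The labels do not say that the 3 samples of a group came from separate cultures, so p-values rest only on a spread between samples, which may be technical. In bulk RNA, fewer cells with a transcript and less transcript per cell cannot be told apart.

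The siRNA targets and cell type markers were examined first. ANKRA2 was at 97.1 normalized counts in siControl DMSO and at 27.7 in siANKRA2 DMSO, and at 376 and 63 in the corresponding Nutlin-3a groups. The deposited mean of ANKRA2 was 31568, far above every recovered level, so the levels of this gene are not settled. RFXANK was at 824 in siControl DMSO, 950 in siControl Nutlin-3a and 106 in both siRFXANK groups. The direction of the knockdown comparisons was read from these targets, so the lower target is no independent check. Of the mesenchymal markers, RUNX2 ranged from 376 to 579 normalized counts over the groups, and COL1A1, SPARC and VIM were far higher. COL1A2 (24.5 to 76.5) and ALPL (32.5 to 246) were lower, and the osteocalcin gene BGLAP had a deposited mean of 2.08. Of 5 epithelial markers, EPCAM (93.8 to 180) and CLDN4 (354 to 1140) were present, CDH1 (6.75 to 50.6) and ESRP1 (1.71 to 12.4) were low, and KRT19 had a deposited mean of 1.67. The blood markers PTPRC and CD14 did not exceed 9.3, and CD3E was not analysed here. The endothelial marker VWF ranged from 12.5 to 95.8, CDH5 from 2.07 to 7.35, and PECAM1 had a deposited mean of 1.33.

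MMPs are zinc-dependent enzymes that cut proteins of the extracellular matrix and of the cell surface. Most are made as inactive proenzymes whose propeptide has to be removed, and TIMPs bind the catalytic domain and block it. MMP1 and MMP13 are collagenases, MMP3 and MMP10 are stromelysins, MMP2 is a gelatinase, and MMP14 and MMP16 are anchored in the plasma membrane. MMP14 activates proMMP2 in a complex that includes TIMP2, so that TIMP2 is both an inhibitor and an adaptor. TIMP1 is secreted, and TIMP3 stays bound to the matrix and also inhibits ADAM proteases. In bone, these enzymes take part in matrix turnover, and in tumours several of them are linked to invasion.

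Upstream sequences are shown for the members whose changes are described below and that have an entry in the RefSeq promoter table of GRCh38.p14, which were 4 of 10. The window was the 250 bases before the RefSeq start, and bases that GENCODE 29 counts as part of the gene were left out. MMP10 is shown because it went from the floor to a clear level after siANKRA2. MMP14, TIMP1 and TIMP3 are shown because their Nutlin-3a responses differed after siANKRA2. Sequences run 5′ to 3′ on the strand of the gene, and capitals mark the motifs named next.
MMP10, chr11:102780629-102780878, minus strand: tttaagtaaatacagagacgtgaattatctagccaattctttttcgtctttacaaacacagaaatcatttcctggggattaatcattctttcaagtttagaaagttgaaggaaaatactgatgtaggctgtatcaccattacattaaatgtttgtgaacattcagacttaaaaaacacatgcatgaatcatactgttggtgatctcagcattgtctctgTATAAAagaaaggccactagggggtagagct
MMP14, chr14:22836335-22836556, plus strand: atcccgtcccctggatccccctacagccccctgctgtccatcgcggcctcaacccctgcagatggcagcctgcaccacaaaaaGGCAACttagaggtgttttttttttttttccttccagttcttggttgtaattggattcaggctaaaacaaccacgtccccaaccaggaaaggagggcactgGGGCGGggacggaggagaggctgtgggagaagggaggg
TIMP1, chrX:47582186-47582312, plus strand: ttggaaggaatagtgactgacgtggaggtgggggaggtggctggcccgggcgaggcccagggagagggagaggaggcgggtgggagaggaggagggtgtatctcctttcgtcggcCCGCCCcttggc
TIMP3, chr22:32801455-32801700, plus strand: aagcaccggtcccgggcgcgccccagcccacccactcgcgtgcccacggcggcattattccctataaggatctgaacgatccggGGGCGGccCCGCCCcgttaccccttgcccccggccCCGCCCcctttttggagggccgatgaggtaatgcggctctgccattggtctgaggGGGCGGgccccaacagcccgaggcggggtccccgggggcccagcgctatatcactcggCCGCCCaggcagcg

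Exact matches were searched for the AP-1 site (TGAGTCA or TGACTCA), a half-site of the RFX X-box (GTTGCC) and the GC box (GGGCGG), each on both strands, for TATAAA on the strand of the gene, and for the p53 half-site consensus. No match of one motif overlapped a match of another in these windows. The window of MMP10 held TATAAA from base -31 to base -26 before the start, a motif found in 6.8% of 35116 promoters. With 34.4% G and C it was poor in these bases, against a median of 58% over all promoters. The MMP14 window held the X-box half-site, as GGCAAC at -167 to -162, which 10.2% of promoters have, and a GC box at -66 to -61. GC boxes, present in 42.6% of promoters, were found at 2 positions for TIMP1 and at 5 for TIMP3. The second one of TIMP1, at -45 to -40, lies in the bases not shown. The AP-1 site (4.2% of promoters) and the p53 half-site (5.57%) had no match in the 4 windows, which says only that these letters were not there.

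Without a drug, MMP2 had the highest level of the MMP members in U2OS cells. In siControl DMSO, levels per kb of exon were 1332 normalized counts for MMP2, 398 for MMP14, 95.2 for MMP16 and 55.2 for MMP3. MMP13, MMP1 and MMP10 had 2.67, 1.19 and 1.13 per kb. Outside the members, the recovered levels of MMP15 (190 per kb), MMP9 (186) and MMP24 (109) were above MMP16, and those of the other MMP genes with a recovered level were below it. Scaled to the deposited mean of each gene instead, MMP3 would be 2.52 times and MMP1 4.91 times as high, which puts MMP3 above MMP16, MMP1 above MMP13 and MMP1 off the floor, so the order of these levels is not settled. Of the inhibitors, TIMP1 (5212 per kb) and TIMP2 (1466 per kb) were above MMP2, and TIMP3 was at 259 per kb. The gelatinase MMP2, the membrane-bound MMP14 and all 3 inhibitors were thus well measured in every group, whereas the recovered means of the collagenases and of MMP10 were below 10 normalized counts in siControl cells.

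**Figure D1:**
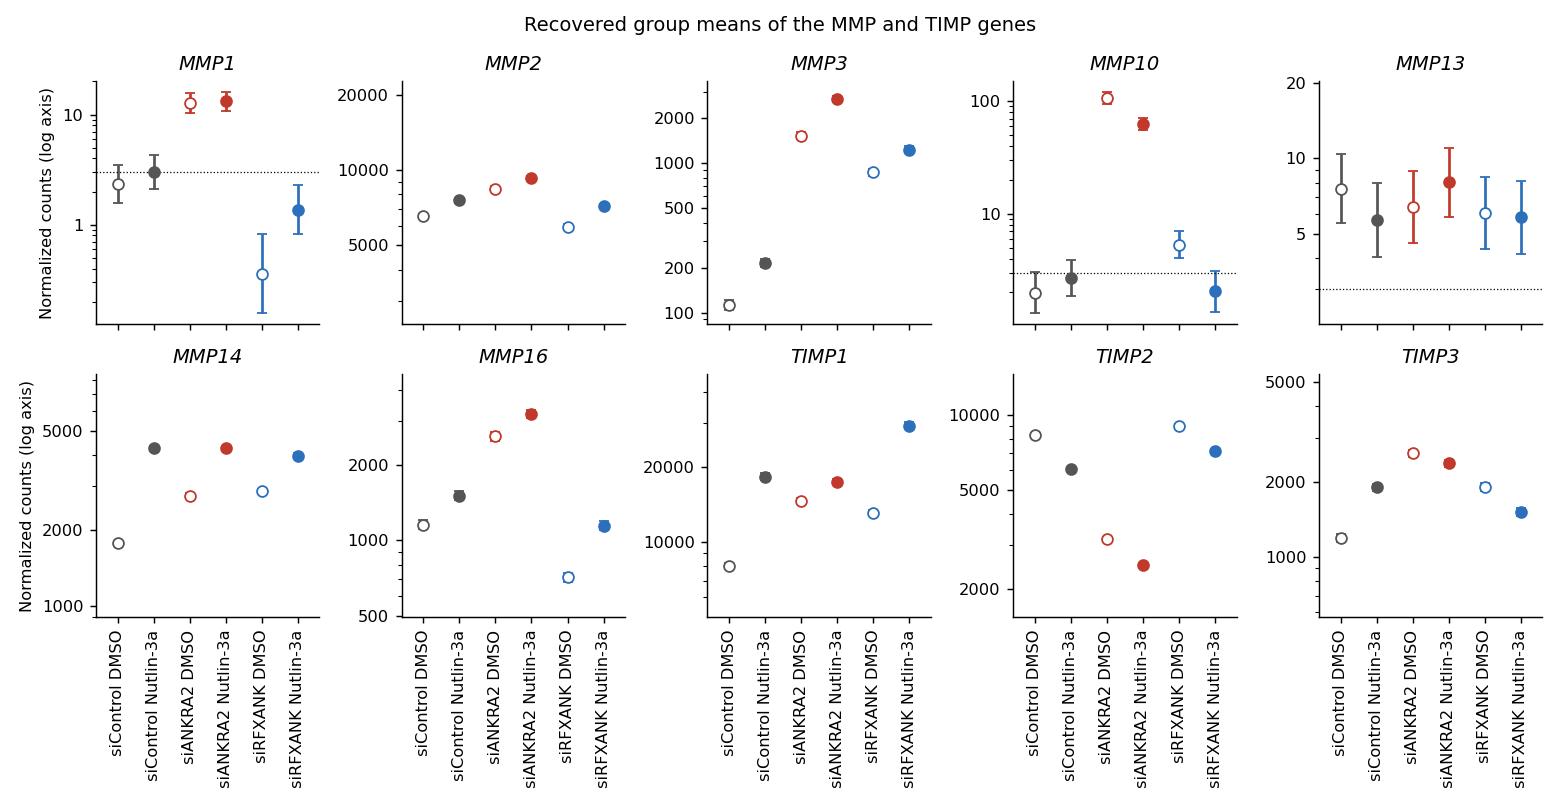
Recovered group means of the 10 genes in normalized counts (log axes that differ between panels) for the 6 groups of 3 samples, with open symbols for DMSO, filled symbols for Nutlin-3a and bars of ±1 SE, some smaller than the symbol. The dotted line is the floor of 3 normalized counts; MMP3, MMP10 and MMP1 are highest in the siANKRA2 groups (red), and TIMP2 is lowest there.

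Nutlin-3a in siControl cells was compared with DMSO to find the response of these genes to the release of p53. In this comparison 6 of the 10 genes were higher and 1 was lower at an adjusted p under 0.05, where 21.9% of all 25909 genes tested were called higher and 21.2% lower. The median log2 fold change was 0.405 over the members, 0.387 without MMP10, which was at the floor in both groups, and 0.0154 over all genes. MMP14 went from 1778 to 4273 normalized counts, a log2 fold change of 1.26 ± 0.05 (SE, DESeq2 adjusted p = 9e-147). TIMP1 went from 8032 to 18267, which was 1.19 ± 0.06 (adjusted p = 1.6e-86). MMP3 rose from 113 to 214, by 0.92 ± 0.14 (adjusted p = 2.6e-10). These were rises of 2.40-fold, 2.27-fold and 1.90-fold.

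Smaller responses were seen in the other members. TIMP3 rose by 0.67 ± 0.07 on the log2 scale, from 1192 to 1899 normalized counts. MMP16 (0.39 ± 0.08) and MMP2 (0.20 ± 0.04) rose 1.31-fold and 1.15-fold, from levels of 1153 and 6571. TIMP2 was the member that fell, from 8260 to 6038, with a log2 fold change of -0.45 ± 0.04 (DESeq2 adjusted p = 3.8e-32). MMP13 was at 7.56 and 5.66, and its difference of -0.42 ± 0.67 was within its error. MMP1 and MMP10 had mean levels of at most 3.03 in both groups.

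In siANKRA2 cells the same treatment gave 5 higher and 2 lower members, with 15.5% of 22738 genes called higher and 17% lower. MMP3 rose from 1530 to 2708 normalized counts, by 0.82 ± 0.10 on the log2 scale (DESeq2 adjusted p = 4.4e-14). MMP14 rose from 2751 to 4265, by 0.63 ± 0.05, and TIMP1 from 14580 to 17440, by 0.26 ± 0.06. MMP16 and MMP2 rose by 0.30 ± 0.08 and 0.14 ± 0.04. MMP10, measurable in these cells, fell from 107 to 62.7, with a log2 fold change of -0.78 ± 0.25 (adjusted p = 0.0092). TIMP2 fell from 3169 to 2506. TIMP3 had levels of 2594 in DMSO and 2369 in Nutlin-3a, a difference of -0.13 ± 0.07 with an adjusted p of 0.13.

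Whether the Nutlin-3a response itself differed between siANKRA2 and siControl cells was tested as the difference of both log2 fold changes, with a normal two-sided p adjusted over 22738 genes. Lower responses were found for 3 members and higher ones for none, against 12.5% and 11.4% of all genes. The difference in log2 fold change was -0.93 ± 0.08 for TIMP1 (adjusted p = 2.5e-26). It was -0.80 ± 0.10 for TIMP3 (adjusted p = 3.4e-15) and -0.63 ± 0.07 for MMP14 (adjusted p = 8.7e-19). In each of these 3 genes the siANKRA2 DMSO group was already above siControl DMSO. For MMP14 and TIMP1 the Nutlin-3a groups then had close means, at 4265 against 4273 and at 17440 against 18267. For MMP3 the difference in response was -0.10 ± 0.17, with a 95% interval from -0.44 to 0.243 and an adjusted p of 0.77. An interval of this width leaves room for responses that differ by up to 0.44.

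**Figure D2:**
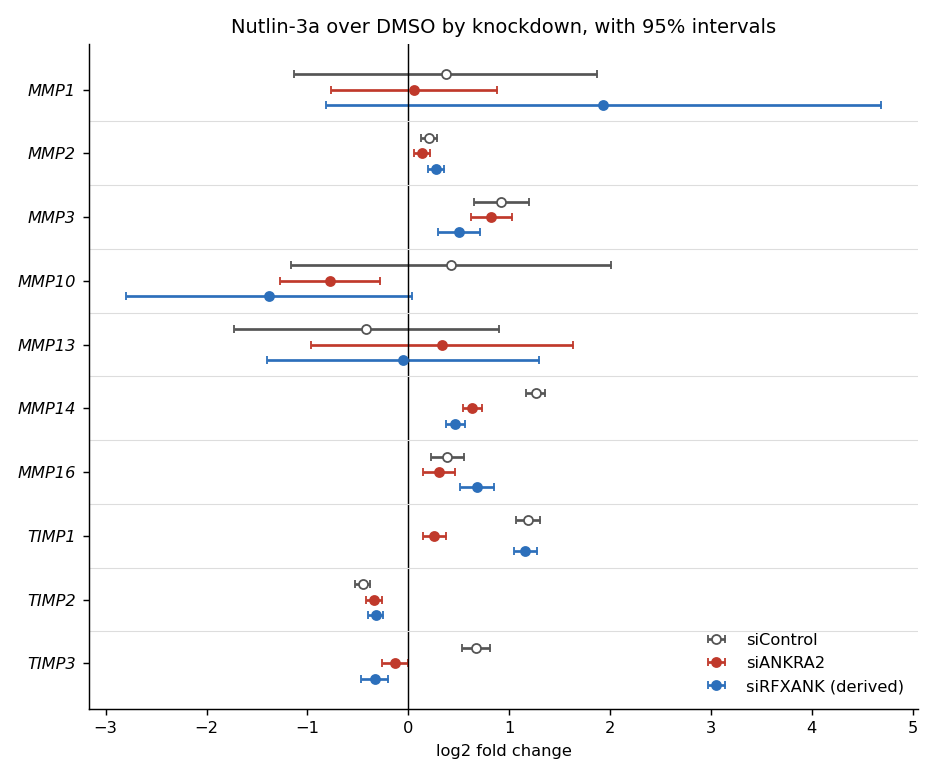
Log2 fold change of Nutlin-3a over DMSO (horizontal axis, points with 95% intervals) for each gene in siControl, siANKRA2 and siRFXANK cells, the last derived from the other comparisons. The intervals of MMP14 and TIMP3 lie lower in both knockdowns than in siControl, whereas TIMP1 is lower in siANKRA2 (0.26) but at 1.16 in siRFXANK, close to the 1.19 of siControl.

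The comparison of siANKRA2 with siControl in DMSO asked which of these genes differed after siANKRA2 without a drug. Whether a difference came from the lower ANKRA2 or from another effect of the siRNA was not tested. Higher levels were called for 8 of the 10 members and a lower level for 1, with 24.3% of 26702 genes called higher and 24.5% lower. Of the 14 other family genes in this comparison, 5 were called higher and 2 lower. The members were chosen with earlier results of these data known, so their count and median are a description. The median log2 fold change was 0.991 over the members, also with the siControl means of MMP10 and MMP1 set to the floor, and 0.0123 over all genes. MMP3 rose from 113 to 1530 normalized counts, by 3.76 ± 0.13 on the log2 scale or 13.5-fold (DESeq2 adjusted p = 2.8e-183). MMP10 was at 1.99 in siControl, below the floor, and at 107 in siANKRA2, which is 35.7 times the floor (adjusted p = 6.9e-19). The 95% interval of its log2 fold change ran from 4.51 to 6.99. MMP1 went from 2.34 to 12.7, which is 4.22 times the floor (adjusted p = 0.00045), with an interval from 1.17 to 3.70. Both stromelysins and the interstitial collagenase therefore had more transcript after siANKRA2, from very different starting levels.

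The membrane-type enzymes and the inhibitors changed less. MMP16 went from 1153 to 2602 normalized counts, a log2 fold change of 1.17 ± 0.08 (DESeq2 adjusted p = 4.7e-45). TIMP3 went from 1192 to 2594, by 1.12 ± 0.07 (adjusted p = 3.4e-58), and TIMP1 from 8032 to 14580, by 0.86 ± 0.06 (adjusted p = 7.2e-46). MMP14 rose from 1778 to 2751, by 0.63 ± 0.05, and MMP2 from 6571 to 8435, by 0.36 ± 0.04. TIMP2 changed the other way, from 8260 to 3169, with a log2 fold change of -1.38 ± 0.04 (adjusted p = 4.8e-273), so that it was 2.61-fold lower. MMP13 was at 7.56 and 6.37, a difference of -0.25 ± 0.66 with an adjusted p of 0.80.

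In Nutlin-3a, siANKRA2 cells had 6 members higher and 1 lower than siControl cells, with 24.6% and 25.5% of all genes called. MMP3 was at 214 in siControl and 2708 in siANKRA2, a log2 fold change of 3.66 ± 0.12 (DESeq2 adjusted p = 5.2e-213). MMP10 was at 2.67 and 62.7, the latter 20.8 times the floor (adjusted p = 4.2e-15). The 95% interval of its log2 fold change ran from 3.45 to 5.66. MMP1 was at 3.03 and 13.2, higher by 2.12 ± 0.59 (adjusted p = 0.00088). MMP16 was higher by 1.09 ± 0.08, TIMP3 by 0.32 ± 0.07 and MMP2 by 0.29 ± 0.04. TIMP2 was lower by 1.27 on the log2 scale (-1.27 ± 0.04, adjusted p = 1.5e-217). MMP14 did not pass the test, and its difference of -0.0027 ± 0.046 had a 95% interval from -0.094 to 0.088. The same held for TIMP1, at -0.067 ± 0.059 with an interval from -0.183 to 0.049, and for MMP13, at 0.50 ± 0.67. The siControl and siANKRA2 comparisons with Nutlin-3a and with DMSO share groups, so they are not independent of each other.

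**Figure D3:**
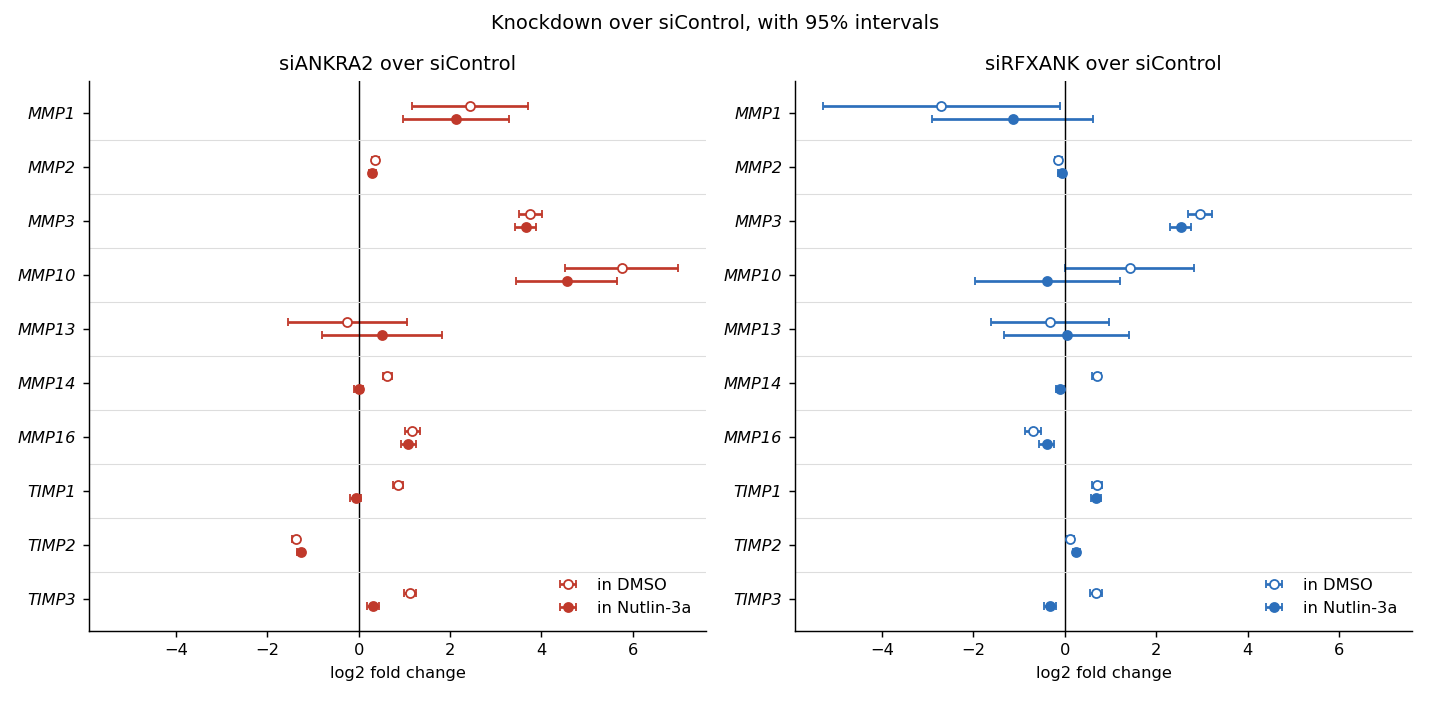
Log2 fold change of siANKRA2 (left) and siRFXANK (right) over siControl for each gene, with 95% intervals, open symbols for DMSO and filled ones for Nutlin-3a. MMP3 is between 2.53 and 3.76 in all 4 comparisons, MMP10 and MMP1 are above 0 after siANKRA2, and MMP16 is above 0 after siANKRA2 but below 0 after siRFXANK; the fold changes of MMP1 and MMP10 rest on group means at the floor.

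After siRFXANK, the comparison with which MMP3 was selected, MMP3 was at 875 normalized counts in DMSO and 1237 in Nutlin-3a, against 113 and 214 in siControl. The log2 fold changes were 2.95 ± 0.13 and 2.53 ± 0.12. These values describe the choice and carry no test. In DMSO 5 members, MMP3 included, were called higher and 2 lower, with 20.9% and 21.2% of all genes called. In Nutlin-3a the counts were 3, MMP3 included, and 2, with 19.8% and 19.6% called. These counts are given without a reading, because these comparisons chose MMP3. Both siRNAs were compared with the same siControl samples, so their values are set side by side only.

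The stromelysin MMP10 was at 5.32 in siRFXANK DMSO and below the floor, at 2.05, in siRFXANK Nutlin-3a. Its log2 fold change in DMSO was 1.42 ± 0.72, with a 95% interval from -0.0008 to 2.83, and it was not called. MMP1 was below the floor in both siRFXANK groups, at 0.359 and 1.37. TIMP1 was higher than in siControl, with log2 fold changes of 0.70 ± 0.06 in DMSO and 0.68 ± 0.06 in Nutlin-3a, and its level of 29229 in siRFXANK Nutlin-3a was the highest of the 6 groups. TIMP2 was at 8965 and 7176 in the siRFXANK groups, with log2 fold changes of 0.12 ± 0.04 and 0.25 ± 0.04, whereas both siANKRA2 groups had 3169 or less. MMP16 was at 711 and 1143, with log2 fold changes of -0.70 ± 0.09 and -0.40 ± 0.08, and both siANKRA2 groups were above siControl. MMP2 differed by -0.15 ± 0.04 and -0.07 ± 0.04, and MMP13 by -0.32 ± 0.66 and 0.04 ± 0.70.

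MMP14 and TIMP3 had siRFXANK values of opposite sign in DMSO and in Nutlin-3a. In DMSO, MMP14 was higher in siRFXANK by 0.69 ± 0.05 and TIMP3 by 0.68 ± 0.07. In Nutlin-3a the differences were -0.11 ± 0.05 for MMP14, which was not called, and -0.33 ± 0.07 for TIMP3. The difference in Nutlin-3a response was therefore -0.80 ± 0.07 for MMP14 and -1.004 ± 0.098 for TIMP3, and -0.02 ± 0.08 for TIMP1. Over all genes 11.6% were called with a higher and 9.64% with a lower response, and of the members 0 were called higher and 2 lower, given without a reading because these comparisons chose MMP3. For MMP3 the response differed by -0.42 ± 0.18. The response to Nutlin-3a in siRFXANK cells, derived from these tables, was 0.50 ± 0.11 for MMP3, 0.47 ± 0.05 for MMP14, 1.16 ± 0.06 for TIMP1 and -0.33 ± 0.07 for TIMP3.

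The levels of MMP3, given as a description, ran from siControl DMSO (113) over siControl Nutlin-3a (214), siRFXANK DMSO (875), siRFXANK Nutlin-3a (1237) and siANKRA2 DMSO (1530) to siANKRA2 Nutlin-3a (2708). The closest neighbours were siRFXANK Nutlin-3a and siANKRA2 DMSO, 0.31 apart on the log2 scale. For MMP14 the siANKRA2 and siRFXANK DMSO groups were close, at 2751 and 2875. For TIMP3 siControl Nutlin-3a (1899) and siRFXANK DMSO (1904) were close. MMP13 stayed between 5.66 and 8.02 in the 6 groups.

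Among 13103 genes with a deposited mean of at least 100, the genes whose levels over the 6 groups were most like those of MMP3 were CLDN1, PTPRR, DUSP1, ACTBL2 and TRAF1. Likeness was the distance over the 5 log2 differences to siControl DMSO, which was 1.42 for CLDN1 and between 2.41 and 2.65 for the other four. CLDN1, a tight junction protein, had log2 differences of 4.19 and 4.25 in the siANKRA2 groups and 2.28 and 3.03 in the siRFXANK groups. In siControl Nutlin-3a it was at -0.12, where MMP3 was at 0.92.

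MMP1, MMP3, MMP10 and MMP13 lie on the minus strand of chromosome 11 within a 435-kb span that runs from 102520508 to 102955734 (GRCh38, GENCODE 29). Only MMP genes and the pseudogene WTAPP1 were taken from this span. In the direction of the coordinates, they are MMP7, MMP20, MMP27, MMP8, WTAPP1, MMP10, MMP1, MMP3, MMP12 and MMP13. MMP20, MMP27 and MMP8 were not analysed here. The neighbours MMP10, MMP1, MMP3 and MMP12 were higher after siANKRA2. MMP12, the macrophage elastase, was at 0.356 normalized counts in siControl DMSO and 24.5 in siANKRA2 DMSO, the latter 8.15 times the floor. At the ends of the span, MMP7 (matrilysin) had log2 fold changes of -1.02 ± 0.42 in DMSO and -2.24 ± 0.48 in Nutlin-3a, and MMP13 was not called.

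MMP10, from 102770503 to 102780628, MMP1, from 102789920 to 102798160, and MMP3, from 102835801 to 102843803, are overlapped on the opposite strand by the pseudogene WTAPP1. Whether strand was used in counting is not given in the sources used here. WTAPP1 had a deposited mean of 38.8 and log2 fold changes of -0.08 ± 0.27 in DMSO and 0.15 ± 0.26 in Nutlin-3a after siANKRA2. MMP3 and MMP10 share 245 bases of their longest transcripts in stretches of at least 31 bases, which is 12.2% of MMP3 and 13.9% of MMP10. Whether reads were split between them was not tested. MMP1 shares 154 bases with WTAPP1, and MMP13 shares none with another gene.

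**Figure D4:**
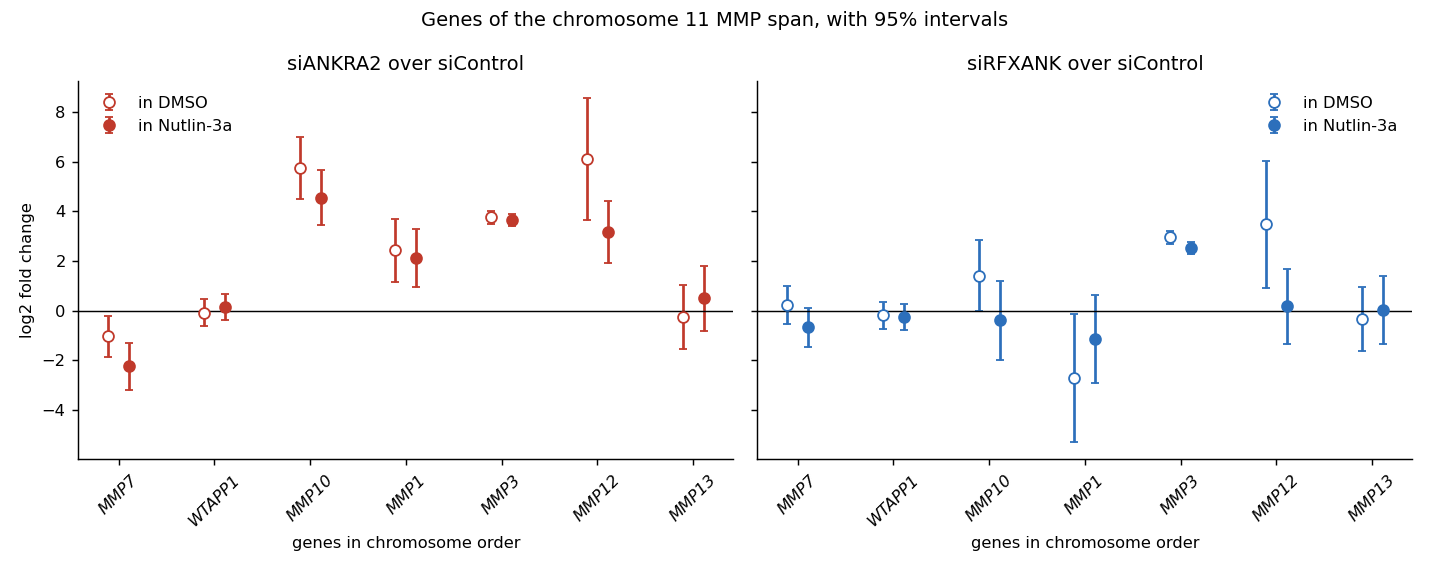
Log2 fold change over siControl, with 95% intervals, for WTAPP1 and the measured MMP genes of the chromosome 11 span in the order of their coordinates. Values are shown after siANKRA2 (left) and siRFXANK (right), with open symbols for DMSO and filled ones for Nutlin-3a. After siANKRA2 the points of MMP10, MMP1, MMP3 and MMP12 lie above 0, those of WTAPP1 and MMP13 near 0 and those of MMP7 below it; fold changes of MMP10, MMP1 and MMP12 rest on siControl means at or near the floor.

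The other members are on separate chromosomes. MMP2 spans 55389700 to 55506691 on the plus strand of chromosome 16, MMP14 spans 22836557 to 22849027 on the plus strand of chromosome 14, and MMP16 lies on the minus strand of chromosome 8. TIMP1 is at 47582313 to 47586789 on the plus strand of chromosome X, inside the synapsin gene SYN1 on the opposite strand. TIMP3 is at 32801701 to 32863043 on the plus strand of chromosome 22, inside SYN3 on the opposite strand. TIMP2 is at 78852977 to 78925387 on the minus strand of chromosome 17. Of its longest transcript 15.5% is shared with overlapping genes, and MMP2 shares 4.7%. How far this affects the counts of TIMP2 and MMP2 was not tested. TIMP1, TIMP3 and MMP14 share no stretch of this length.

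Of the remaining genes of the family, 5 of 14 were called higher after siANKRA2 in DMSO and 2 lower, where 24.3% and 24.5% of all genes were. In Nutlin-3a 4 were called higher and 3 lower, against 24.6% and 25.5% of all genes. MMP9, the other gelatinase, differed by treatment, with log2 fold changes of 0.99 ± 0.08 in DMSO and -0.80 ± 0.08 in Nutlin-3a. In siControl cells MMP9 rose with Nutlin-3a by 1.19 ± 0.08, and in siANKRA2 cells it had a log2 fold change of -0.61 ± 0.08. MMP15, a membrane-type enzyme, was the lowest in DMSO at -1.24 ± 0.07.

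Among 17 activators and further inhibitors of MMPs, 16 were in the table of siANKRA2 over siControl in DMSO, and 11 were called higher and 3 lower, against 24.3% and 24.5% of all genes. RECK, a membrane-anchored inhibitor of MMPs, had the lowest value of the list in that comparison, -0.80 ± 0.08. With Nutlin-3a in siControl cells 8 of 16 were higher and 1 lower, against 21.9% and 21.2% of all genes. In siANKRA2 cells 3 of 15 were higher and 6 lower, against 15.5% and 17%. A2M, a broad protease inhibitor of plasma, had the highest log2 fold changes of the list after siRFXANK, 3.22 ± 0.17 in DMSO and 3.43 ± 0.15 in Nutlin-3a.

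The related ADAM and ADAMTS proteases counted 7 higher and 1 lower of 11 after siANKRA2 in DMSO, against 24.3% and 24.5% of all genes, with ADAM12 highest at 1.48 ± 0.08. After siRFXANK in DMSO 3 were higher and 4 lower, against 20.9% and 21.2% of all genes, with ADAM15 at -1.55 ± 0.06. Of 15 transcription factors known to bind MMP promoters, 12 were higher and 2 lower in that comparison of siANKRA2, and the median of the list was 0.644 against 0.0123 over all genes. FOSL1, a subunit of AP-1, rose by 1.95 ± 0.06 (DESeq2 adjusted p = 3e-198), and JUND, another AP-1 subunit, had the lowest value at -1.20 ± 0.06. The Nutlin-3a response of 10 of the 15 was lower in siANKRA2 than in siControl cells and that of 1 was higher, against 12.5% and 11.4% of all genes. After siRFXANK in DMSO 4 of 15 were higher and 6 lower, against 20.9% and 21.2%. RELA, a subunit of NF-κB, was at -0.95 ± 0.04.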

How the data were processed

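RNA was isolated from U2OS cells and polyadenylated RNA was sequenced, per the labels. According to the submitters' processing notes, reads were processed with bcl2fastq (2.20.0.422), Trimmomatic (0.39), cutadapt (2.10), FastQC (0.11.9), SAMtools (1.10), Picard and featureCounts (1.6.5) on hg38, and DESeq2 (1.20.0) was run by the authors. The aligner, the annotation and the use of strand are not given in the sources used here. The deposited tables hold, for each of 6 comparisons, the mean normalized count of a gene (a signal value), a log2 fold change with its standard error on the log2 scale, a Wald score, and a p-value, raw and adjusted by the Benjamini-Hochberg method, all made by the authors. No value per library was used, and the depth per sample is unknown. All fold changes and adjusted p-values of single comparisons printed here are those of the deposited tables, called at an adjusted p under 0.05.

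Computed here, in Python (3.11.15, numpy 2.4.6, pandas 2.3.3, scipy 1.17.1, matplotlib 3.10.9), were the difference of the Nutlin-3a responses, the derived response in siRFXANK cells, and group means. The variance of a log2 group mean was set by that mean and by 1 dispersion per gene, and both were fitted to the 6 standard errors, with means below 0.5 set to 0.5. The deposited mean of a gene was not used in that fit. On simulated data of 18455 genes, the test of the response difference for siANKRA2 recovered 145 of 200 genes changed 2-fold, with 9 false calls. The members and gene lists were chosen with earlier results of these data known. Named from each list were the called genes with the highest and the lowest fold change and a mean of at least 100. A gene that met this rule is not reported here. Transcripts were those of GENCODE 29, in which 99.8% of the gene IDs were found, and promoters those of RefSeq. Alternatives were a threshold of 0.01, a log2 fold change of at least 1, a mean of at least 10 or 100, centring on the median gene and scaling to the deposited mean.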

Additional observations from a re-analysis of the deposited data

Results flagged for a closer look

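The response to Nutlin-3a differed between siANKRA2 and siControl cells in 3 of the 10 genes, by the normal test of the difference adjusted over all genes. The difference in log2 fold change was -0.93 ± 0.08 (SE) for TIMP1 (adjusted p = 2.5e-26), -0.80 ± 0.10 for TIMP3 (adjusted p = 3.4e-15) and -0.63 ± 0.07 for MMP14 (adjusted p = 8.7e-19). Each was smaller than 1 log2 unit. For siRFXANK cells the response differed by -1.004 ± 0.098 for TIMP3 and by -0.80 ± 0.07 for MMP14, which is a description, since these comparisons were used in choosing the genes and a batch cannot be told apart from the siRNA.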

How the results depend on the processing

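With a log2 fold change of at least 1, the number of members called was 2 instead of 7 for Nutlin-3a in siControl cells, 0 instead of 7 in siANKRA2 cells, 1 instead of 7 for siRFXANK in DMSO, 1 instead of 5 for siRFXANK in Nutlin-3a, 0 instead of 3 for the siANKRA2 response difference and 1 instead of 2 for that of siRFXANK. Restricted to genes with a mean of at least 10 or 100, so that fewer genes were tested, the last count was 4 (TIMP2, TIMP3, MMP14 and MMP16) or 5 (MMP3 in addition). The siRFXANK counts are a description only, because these comparisons chose MMP3. Centring subtracted the median gene's log2 fold change, which lay between -0.019 and 0.016. MMP14 after siANKRA2 in Nutlin-3a, not called either way, went from -0.0027 to 0.0047. MMP14 after siRFXANK in Nutlin-3a went from -0.105 to -0.121 and was called only after centring. The number of members called there was then 6 instead of 5, which is again a description only. Every other count of calls was within 1.5 times its value, and no called value changed sign under the alternatives run.

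Group means scaled to the deposited mean had a median ratio of 0.965 to the recovered ones, from 0.667 for MMP10 to 4.91 for MMP1, with 2.52 for MMP3. The deposited means of MMP1 (27.0) and MMP3 (2807) were above their highest recovered group mean, that of MMP2 was below its lowest one, and that of ANKRA2 was 31568 against recovered means of at most 516. A mean over the 18 samples alone would lie within that range, and the cause was not tested. Whether the authors' fit held further samples was not tested either. The deposited standard errors and adjusted p-values may therefore rest on more than these 18 samples. With the scaled means, the squared standard errors were missed by up to 60.4% for MMP1 and 18.7% for MMP3, and with the recovered ones by up to 1.27% and 0.12%. The recovered levels are therefore approximate, and so are the levels given as multiples of the floor. The deposited fold changes do not depend on the recovered levels. Of 18456 genes with a mean of at least 10, 6.82% had a deposited mean above every recovered group mean.

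No paired analysis was possible because the tables used hold group comparisons without values of single libraries. For the same reason leaving out a replicate and fitting another count model were not run.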
